A study of Mus musculus with 30 samples.

Results

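The branched actin network under the cell membrane is built by the ARP2/3 complex, which the WAVE regulatory complex switches on. The WAVE complex is an assembly of a CYFIP subunit, a NCKAP1 subunit, an ABI subunit, the small subunit BRK1 and the WAVE protein itself, and it is opened by the GTPase RAC1. PAK kinases are further effectors of RAC1, cortactin holds branch points in place, and the ILK-PINCH complex ties integrins to the same actin. Spermatogonial stem cells (SSCs), which renew the male germline and feed sperm production, depend on adhesion to their niche in the testis, and in culture they attach to a layer of feeder cells.

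The genes described here are 10 of the 13904 with an RNA-seq level in mouse SSC lines. They are the WAVE subunits *Nckap1*, *Cyfip1*, *Abi1*, *Brk1* and *Wasf2*, the GTPase *Rac1*, the kinase *Pak2*, cortactin (*Cttn*), the PINCH adaptor *Lims1* and the integrin-linked kinase *Ilk*. They were taken as a list of names from these pathways, which was drawn up with earlier results of these data known and applies no threshold to their values. All 10 have an RNA-seq level, and 8 of them are among the 5806 transcripts with an mRNA half-life. *Cyfip1* and *Ilk* have no half-life in the tables, as is the case for most genes, since 37.1% of those with an RNA-seq level have one.

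The study examined NANOS2, an RNA-binding protein of undifferentiated spermatogonia, through an allele that adds an N-terminal tag with EGFP to the endogenous protein. SSC lines were derived from testes of P7 mice and grown on mouse embryonic fibroblasts, from which the cells were separated before RNA was extracted. RNA-seq and SLAM-seq, which follows the loss of 4-thiouridine-labelled RNA over time, were made from line 4, with the genotype Nanos2TAG/+ (called TAG/+), and from line 5, with the genotype Nanos2TAG/TAG (called TAG/TAG). The series also holds 2 CRAC libraries (RNA cross-linked to NANOS2) of the TAG/TAG line and 2 of a control line, not analysed here.

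Both lines carry the tagged allele, so neither is a control without it, and each genotype is 1 line. RNA-seq has 1 library per line, scaled to 10908790 reads in TAG/+ and 11738620 in TAG/TAG. RNA was extracted with QIAzol for the TAG/+ library and with Trizol for the TAG/TAG library, so genotype, line and reagent cannot be told apart in RNA-seq. SLAM-seq has 12 libraries per line over 6 chase times from 0 to 1440 min, from which the authors fitted a single half-life per transcript and line, without an error. No difference between the lines can therefore be tested against a spread between replicates, and values are given side by side. In bulk RNA, fewer cells of a type and less RNA per cell cannot be told apart.

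The cells carried the RNA of spermatogonia. Of 12 markers of undifferentiated spermatogonia and germ cells, 11 were listed, with a summed level of 768 FPKM in TAG/+ and 1003 FPKM in TAG/TAG (reads scaled to transcript length and library size). Their median log2 ratio (TAG/TAG over TAG/+) was -0.07, so the higher sum was carried by part of them. *Nanos2* itself stood at 27.5 FPKM in TAG/+ and 23.8 FPKM in TAG/TAG. Of 12 fibroblast markers, 11 were listed as well, with a sum of 345 FPKM and 447 FPKM, 5 of them past 1.5-fold higher in TAG/TAG and 0 lower. *Fn1*, the fibronectin gene, made up 254 FPKM and 280 FPKM of that sum, and the other 10 markers summed to 91.1 FPKM in TAG/+ and 167 FPKM in TAG/TAG, a ratio of 1.84. Of 6 markers of testis somatic cells, 3 were listed, summing to 9.33 FPKM in TAG/+ and 25.3 FPKM in TAG/TAG. The members of the actin machinery are also used by fibroblasts, and the part of feeder RNA in their values was not tested.

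*Nckap1*, *Pak2*, *Lims1* and *Cttn* are on the study's list of transcripts most strongly bound by NANOS2, and they are called the bound members below. The list is the top of a longer ranking of genes with CRAC signal. Whether the other members have such signal is not given here, so they are not shown to be unbound. That list was ranked by CRAC signal divided by the mean FPKM of these same RNA-seq libraries, so a low FPKM favours a place on it and is not independent of it. The consensus that the study derived from the listed transcripts is AUKAAWU, where K is G or U and W is A or U and which has 4 spellings. The annotated 3′ UTRs of the members' principal transcripts (GENCODE M21, GRCm38) were searched for these letters on the sense strand. The matches are shown because they are where these mRNAs could be recognised by the letters alone. A match is a description and not a bound site.

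All 4 bound members held at least 1 match, and of the other 6 only *Rac1* did. In each sequence 10 nucleotides stand on either side, the capitals mark the match, and where a transcript has several the number is the distance from the stop codon. In *Nckap1*, whose product joins CYFIP1 to the rest of the WAVE complex, the single match lies 96 nucleotides after the stop codon, in exon 31, at chr2:80501183-80501209 (minus strand).

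*Nckap1*: aguuuuguggAUGAAAUuuucuucaug

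The *Pak2* 3′ UTR is the longest of the 10, at 3890 nucleotides, and held 4 matches, all in exon 15 on the minus strand of chromosome 16. They lie 59, 1090, 1197 and 2322 nucleotides after the stop codon, at chr16:32020105-32020131, chr16:32019074-32019100, chr16:32018967-32018993 and chr16:32017842-32017868.

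*Pak2*, 59: cuuuuaauacAUGAAAUuguuacucug
*Pak2*, 1090: aguuguaauaAUGAAAUgucaauauug
*Pak2*, 1197: uuuaugacagAUGAAAUagugcaguac
*Pak2*, 2322: agacaauuguAUGAAUUgagauucuuu

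The *Cttn* matches lie near the end of the 3′ UTR, 1144 and 1199 nucleotides after the stop codon in a 3′ UTR of 1230, in exon 18 at chr7:144435805-144435831 and chr7:144435750-144435776 (minus strand). *Lims1* held 1 match 267 nucleotides after the stop codon, in exon 11 at chr10:58421712-58421738 (plus strand).

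*Cttn*, 1144: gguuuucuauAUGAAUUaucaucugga
*Cttn*, 1199: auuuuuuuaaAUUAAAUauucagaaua
*Lims1*: uaaaacacagAUGAAAUcaggacuuuc

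*Rac1*, which is not on the list, held 2 matches in exon 6, 99 and 1469 nucleotides after the stop codon, at chr5:143506860-143506886 and chr5:143505490-143505516 (minus strand).

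*Rac1*, 99: uuuguuacagAUUAAUUuuuccauaaa
*Rac1*, 1469: uuuugcauguAUGAAUUaauaaauccu

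The spelling AUGAAAU accounted for 5 of the 10 matches. AUGAAUU accounted for 3 matches, in *Pak2*, *Cttn* and *Rac1*. The spelling AUUAAAU was found only in *Cttn*, and the remaining spelling, AUUAAUU, only in *Rac1*. Over all 12442 genes with an annotated 3′ UTR, 38.7% held at least 1 match, against 5 of the 10 members. The density was 0.495 matches per kb over all 3′ UTRs and 0.538 per kb over the members. Length sets much of the chance of a match, so each member was set beside 3′ UTRs within 20% of its own length. The match in *Lims1* stands in a 3′ UTR of 328 nucleotides, a length at which 16.4% of 3′ UTRs hold one, and for *Nckap1* (783 nucleotides) the share was 28.9%. For *Cttn* it was 38.2%, and for *Pak2* it was 75.9%, so a match in *Pak2* is what most 3′ UTRs of that length show. *Wasf2* held none in 3882 nucleotides, where 75.8% of 3′ UTRs of that length hold one. *Cyfip1* held none in 2440 nucleotides, where the share was 60.9%. *Abi1* (1564 nucleotides), *Brk1* (860) and *Ilk* (263) held none either, at lengths where the shares were 45.7%, 30.4% and 12.7%. For *Rac1* (3341 nucleotides), which held 2 matches, the share was 71.0%. Since the consensus came from the list that the bound members are on, their matches are not independent of their place on it.

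The choice of transcript mattered for *Lims1*. Its longest annotated 3′ UTR has 3123 nucleotides and held 5 matches, at a length where 69.2% of 3′ UTRs hold at least 1. Which end the SSC lines use was not measured here.

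**Figure D1:**
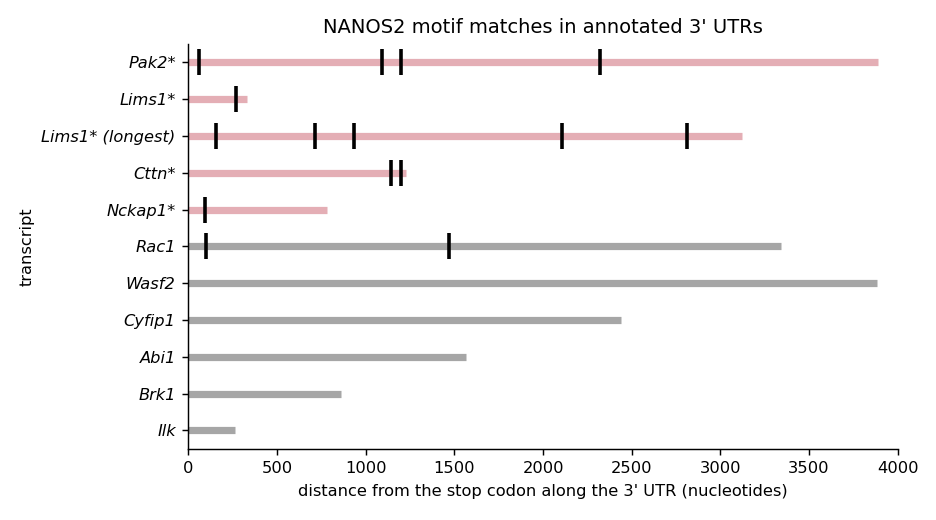
Annotated 3′ UTRs of the members drawn to scale, with the distance from the stop codon in nucleotides on the x axis and 1 transcript per row. Black ticks mark matches to AUKAAWU, red bars and asterisks mark the bound members, grey bars the others, and *Lims1* is drawn on 2 rows, for its principal and its longest 3′ UTR; ticks stand on all red bars and, of the grey ones, on *Rac1* alone.

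2 other short elements were counted in the same 3′ UTRs. AUUUA, the core of AU-rich elements that many decay factors recognise, stood in 8 of 10 members against 67.5% of all 3′ UTRs. The density was 1.88 copies per kb over the members and 1.82 per kb over all 3′ UTRs. *Pak2* held 9 copies, *Cyfip1* 7, *Abi1*, *Wasf2* and *Rac1* 5 each, *Nckap1* 2, *Cttn* and *Lims1* 1 each, and *Brk1* and *Ilk* none. Among 3′ UTRs within 20% of the same length, the share with AUUUA was 97.6% for *Pak2*, 92.8% for *Cyfip1* and 38.2% for *Lims1*. UGUANAUA, the core that PUMILIO proteins recognise, stood in 2 of 10 members against 25.3% of all. Those members were *Abi1*, with 2 copies, and *Cyfip1*, with 1. No bound member held UGUANAUA.

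The members spanned a wide range of RNA levels. In the order of their mean over both lines, the highest was *Ilk* and the lowest *Lims1*, and these are both parts of the ILK-PINCH complex. 9 of the members lay above the median gene, which stood at 10.2 FPKM in TAG/+ and 10.5 FPKM in TAG/TAG, and *Lims1* lay below it in both lines.

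Among the WAVE subunits, *Nckap1* (chr2:80500512-80581380, GRCm38, as for all coordinates here) was the lowest, with 16.4 FPKM in TAG/+ and 13.9 FPKM in TAG/TAG. *Cyfip1* (chr7:55841745-55932602), the subunit that binds active RAC1, stood at 31.0 FPKM in TAG/+ and 33.4 FPKM in TAG/TAG. *Abi1* (chr2:22940073-23040241), the adaptor that holds the WAVE protein, stood at 58.7 FPKM in TAG/+ and 70.9 FPKM in TAG/TAG. The subunits were thus not at one level, although the assembled complex holds a copy of each. *Brk1* (chr6:113604772-113616951), the smallest subunit, which also exists free before assembly, stood at 74.5 FPKM in TAG/+ and 82.5 FPKM in TAG/TAG. *Wasf2* (chr4:133130505-133199756), which encodes WAVE2 and carries the domain that activates ARP2/3, stood at 77.0 FPKM in TAG/+ and 74.7 FPKM in TAG/TAG. The highest subunit exceeded the lowest 4.70-fold in TAG/+ and 5.93-fold in TAG/TAG.

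*Rac1* (chr5:143503634-143528036) stood at 86.0 FPKM in TAG/+ and 68.7 FPKM in TAG/TAG, next to *Brk1* and *Wasf2*. *Pak2* (chr16:32016290-32079342), a group I PAK that RAC1 and CDC42 activate, stood at 22.8 FPKM in TAG/+ and 21.3 FPKM in TAG/TAG. *Cttn* (chr7:144435733-144471009) stood at 40.6 FPKM in TAG/+ and 38.3 FPKM in TAG/TAG. PAK2 and cortactin mRNAs were therefore both below the GTPase in each line.

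*Lims1* (chr10:58323466-58424691), which encodes PINCH1, the adaptor that binds the ankyrin repeats of ILK, stood at 6.85 FPKM in TAG/+ and 5.31 FPKM in TAG/TAG, from 121 and 101 reads. *Ilk* (chr7:105736592-105742925), a pseudokinase that links integrin tails to actin, stood at 117 FPKM in TAG/+ and 88.3 FPKM in TAG/TAG. In the order of mean levels, the neighbours *Brk1* and *Rac1*, and *Rac1* and *Wasf2*, overlapped between the lines, and no other neighbours did. The bound members occupied 4 of the 5 lowest places, with a median of 18.6 FPKM against 76.6 FPKM for the other 6, and that order is partly set by the ranking of the list.

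**Figure D2:**
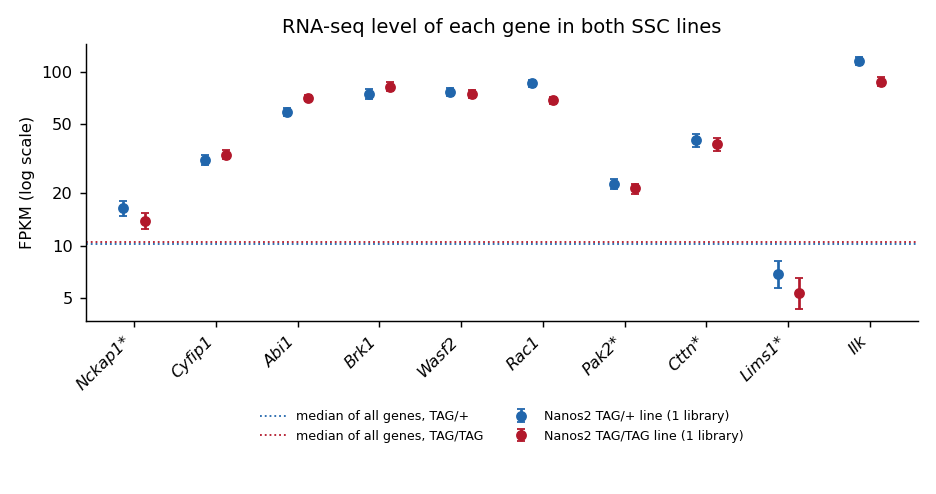
FPKM on a log scale for the 10 members in the TAG/+ library (blue) and the TAG/TAG library (red), 1 library per line. Bars are 95% exact Poisson intervals of the recovered reads and cover counting error only, dotted lines are the medians of all genes, and asterisks mark the bound members; levels run from 5.31 FPKM for *Lims1* to 117 FPKM for *Ilk*.

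The deposited FPKM divides reads by the mean length of a gene's annotated transcripts, and short annotated fragments lower that mean. The principal transcript of *Wasf2* was 3.55 times its mean length, and the factor was 2.69 for *Cttn*, 2.35 for *Cyfip1* and 2.24 for *Rac1*, against a median of 1.60 over 12436 genes. These 4 lay above the upper quartile of all genes. Scaled to the principal transcript instead, *Brk1* took the highest mean level with 78.5 (in units of FPKM), *Ilk* followed with 61.3 and *Abi1* with 49.1, *Rac1* stood at 34.5, and *Wasf2* dropped to 21.4. *Lims1* stayed lowest at 6.29, close to *Nckap1* at 7.55, and these neighbours overlapped between the lines. The spread of the WAVE subunits became wider, 9.13-fold in TAG/+ and 11.9-fold in TAG/TAG. The ratio between the lines is the same under either length.

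Most members have close relatives that could stand in the same complex, and the relatives were set beside them. Of the WAVE proteins, *Wasf1* stood at 29.3 FPKM in TAG/+ and 25.2 FPKM in TAG/TAG, and *Wasf3* at 11.7 FPKM and 10.9 FPKM. By deposited FPKM *Wasf2* made up 65.2% of the family in TAG/+ and 67.5% in TAG/TAG. By principal transcript length *Wasf2* made up 34.9% and 37.2% and came second to *Wasf1*, which stood at 28.7 and 24.7 in units of FPKM against 21.7 and 21.1 for *Wasf2*. Which WAVE mRNA led therefore depended on the length used.

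*Cyfip1* made up 80.6% of the CYFIP family in TAG/+ and 79.6% in TAG/TAG, next to *Cyfip2* at 7.45 FPKM and 8.56 FPKM. *Abi1* made up 56.9% of the ABI family in TAG/+ and 60.6% in TAG/TAG. *Abi2* stood at 37.2 FPKM and 34.6 FPKM, and *Abi3* at 7.25 FPKM in TAG/+ and 11.6 FPKM in TAG/TAG. *Cyfip1* and *Abi1* led their families under either length. The relatives *Nckap1l*, *Rac2*, *Lims2* and *Hcls1* were not listed in the RNA-seq table. A gene missing from that table need not be silent, since the germ cell gene *Dazl* and the cofilin gene *Cfl1* are not in it and have half-lives.

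*Pak2* was a minor part of the PAK family, with 10.9% in TAG/+ and 9.71% in TAG/TAG. *Pak4*, a group II kinase that acts without the autoinhibitory dimer of group I, was the most abundant PAK, with 156 FPKM in TAG/+ and 169 FPKM in TAG/TAG. *Pak1*, which like *Pak2* is a group I kinase, stood at 27.7 FPKM and 25.0 FPKM. *Pak3* was near the floor, with 24 reads in TAG/+ and 53 in TAG/TAG, and *Pak6* had 25 and 105 reads. *Pak1* stood above *Pak2* in both lines and under both lengths, so *Pak2* was not the leading group I mRNA either.

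For the RAC family the share differed between the lines. *Rac1* made up 86.3% in TAG/+ and 63.1% in TAG/TAG. *Rac3*, a relative of *Rac1* known mainly from the nervous system, rested on 118 reads in TAG/+ and 375 in TAG/TAG, or 13.6 FPKM and 40.2 FPKM. The ratio of *Rac3* was 2.95, with a 95% counting interval from 2.40 to 3.66. By principal transcript length the share of *Rac1* was 79.2% in TAG/+ and 50.8% in TAG/TAG. Stretches of 50 bases, the read length, occur at a single place in the genome for 89.2% of exon positions in *Rac1* and 90.6% in *Ilk*. It was slightly lower than in *Rac1* for *Cttn*, 93.6% in *Pak2* and at least 98.8% in the other 6, so a minor share of reads from some members could be placed elsewhere.

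None of the members passed a 1.5-fold difference in FPKM between the lines, 0 of 10. Over all 13904 genes 42.2% did, and over genes with at least 5 FPKM in both lines, as all 10 members have, 26.1% did. A 2-fold difference was likewise passed by 0 of 10 members, against 23.1% of all genes. The median log2 ratio of the members (TAG/TAG over TAG/+) was -0.09, against 0.01 over all genes. 7 of 10 members were lower in TAG/TAG, where 49.5% of all genes were lower and 52.8% of those with at least 5 FPKM. All 10 ratios lay between 0.757 and 1.21.

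The ILK-PINCH members had the lowest ratios and 3 WAVE subunits the highest, with the WAVE subunits *Nckap1* and *Wasf2* between them. *Ilk* had the lowest, 0.757 with a 95% counting interval from 0.699 to 0.820. *Lims1* had 0.776 with an interval from 0.590 to 1.02, and *Rac1* had 0.799 with an interval from 0.745 to 0.857. *Nckap1* followed with 0.850, whose interval ran from 0.735 to 0.982. At the other end were 3 WAVE subunits. *Abi1* had 1.21 with an interval from 1.13 to 1.29, *Brk1* had 1.11 with an interval from 1.01 to 1.21, and *Cyfip1* had 1.08 with an interval from 0.986 to 1.18. *Wasf2* (0.970), *Cttn* (0.945) and *Pak2* (0.937) lay closest to no difference, and their intervals included 1. The WAVE subunits therefore stood on both sides of 1, with *Nckap1* and *Wasf2* lower and the other 3 higher in TAG/TAG.

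The interval excluded 1 for 5 of 10 members, against 68.5% of the 13867 genes with recovered reads. It covers counting error only, and with 1 library per line it says nothing of how lines of a genotype vary. Fibroblast marker sums were higher in TAG/TAG, as given above, whereas *Ilk* and *Rac1* were lower there. The part of feeder RNA in these ratios was not tested.

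Half-lives of the members ran from percentile 3.86 (*Lims1* in TAG/TAG) to percentile 86.8 (*Brk1* in TAG/+) of all transcripts. The median transcript had a half-life of 224 min in TAG/+ and 226 min in TAG/TAG, with quartiles of 162 and 289 min in TAG/+ and 159 and 300 min in TAG/TAG. The median of the 8 members was 178 min in TAG/+ and 191 min in TAG/TAG.

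*Lims1* had the shortest half-life, 95.3 min in TAG/+ and 76.9 min in TAG/TAG. That placed it at percentile 5.74 of all transcripts in TAG/+ and 3.86 in TAG/TAG. Under first-order decay, as was fitted, 41.8% of the *Lims1* mRNA present at a given time would be left after 120 min in TAG/+ and 33.9% in TAG/TAG. *Lims1* was thus both the least abundant and the shortest-lived member, and its deposited FPKM and half-lives did not overlap those of any other member.

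*Brk1* was at the other end, with 359 min in TAG/+ and 332 min in TAG/TAG. These are percentiles 86.8 and 80.5, and 79.3% and 77.8% would be left after 120 min. *Brk1* was the only member above the median in both lines, where 39.8% of all transcripts were. The range from *Lims1* to *Brk1* was 3.77-fold in TAG/+ and 4.32-fold in TAG/TAG.

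*Pak2* had 178 min in TAG/+ and 133 min in TAG/TAG. *Cttn* had 177 min in TAG/+ and 136 min in TAG/TAG. The pair had nearly the same half-lives in each line, at percentiles 30.5 and 30.3 in TAG/+ and 17.5 and 18.4 in TAG/TAG, although *Cttn* was the more abundant. The remaining bound member, *Nckap1*, had 229.7 min in TAG/+ and 178 min in TAG/TAG, just above the median transcript in TAG/+ and below it in TAG/TAG.

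*Wasf2* had 175 min in TAG/+ and 203 min in TAG/TAG, and *Abi1* had 229 min in TAG/+ and 206 min in TAG/TAG. *Rac1* had 156 min in TAG/+ and 241 min in TAG/TAG. The 4 WAVE subunits with a value thus covered percentile 29.1 (*Wasf2*) to 86.8 (*Brk1*) in TAG/+ and 31.9 (*Nckap1*) to 80.5 (*Brk1*) in TAG/TAG, so mRNAs of a single complex had half-lives far apart. In the order of mean half-life, only *Brk1* at the top and *Lims1* at the bottom were separate from their neighbours in both lines.

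Below the median in both lines were 4 of 8 members, *Wasf2*, *Pak2*, *Cttn* and *Lims1*, against 39.8% of all transcripts. On different sides of it in the lines were 3 of 8, *Nckap1*, *Abi1* and *Rac1*, against 20.5%. More abundant transcripts had longer half-lives in these lines, so transcripts were split into 10 equal bins of mean FPKM. The median half-life in TAG/+ was 165 min in the bin of *Lims1* and 244 min in the bin of *Brk1*. Each member was then set beside its own bin. Against the median of the 4555 transcripts with at least 5 FPKM in both lines (232 min in TAG/+ and 234 min in TAG/TAG), 6 of 8 members were below in both lines, with *Nckap1* and *Abi1* in addition, where 39.3% of those transcripts were. Against their own bins also 6 of 8 members were below the median in both lines, against 38.1% of 5152 transcripts. There *Abi1* and *Rac1* were the additional members, because the median of their bin, which also holds *Brk1*, was 244 min in TAG/+ and 248 min in TAG/TAG. *Rac1* was close to the median of its bin in TAG/TAG, with a difference of -7.05 min. *Cttn* lay furthest below its bin in TAG/TAG, at -95.2 min, followed by *Lims1* at -83.3 min and *Pak2* at -81.5 min. The order was different in TAG/+, where *Rac1* lay furthest below, at -87.8 min, followed by *Lims1* at -69.6 min and *Wasf2* at -69.2 min. There *Cttn* stood at -50.2 min and *Pak2* at -35.4 min, and *Nckap1* was above its bin by 40.4 min.

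**Figure D3:**
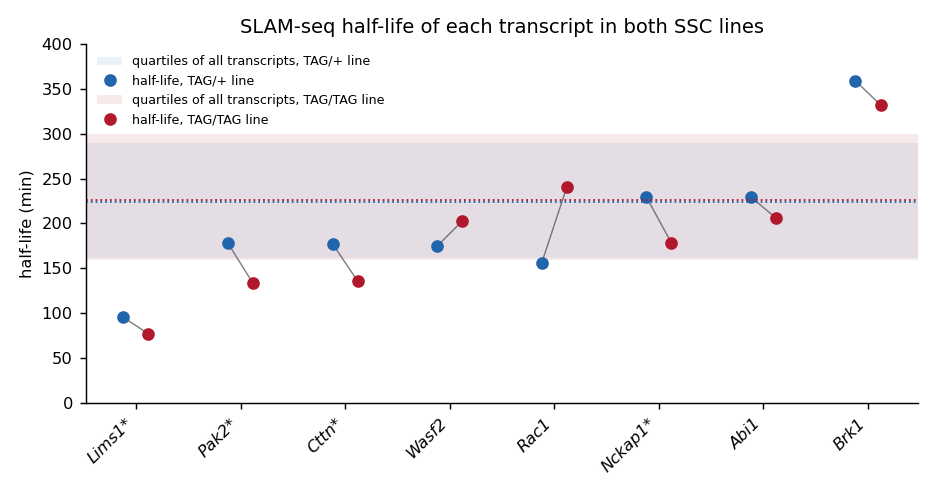
Half-lives in minutes of the 8 members that have them, with TAG/+ in blue and TAG/TAG in red, each point 1 fitted value per line without an error, ordered by mean. Dotted lines are the medians of all 5806 transcripts and shaded bands their quartiles; *Lims1* lies under the bands and *Brk1* above them in both lines, and *Rac1* is the member whose points are furthest apart.

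**Figure D4:**
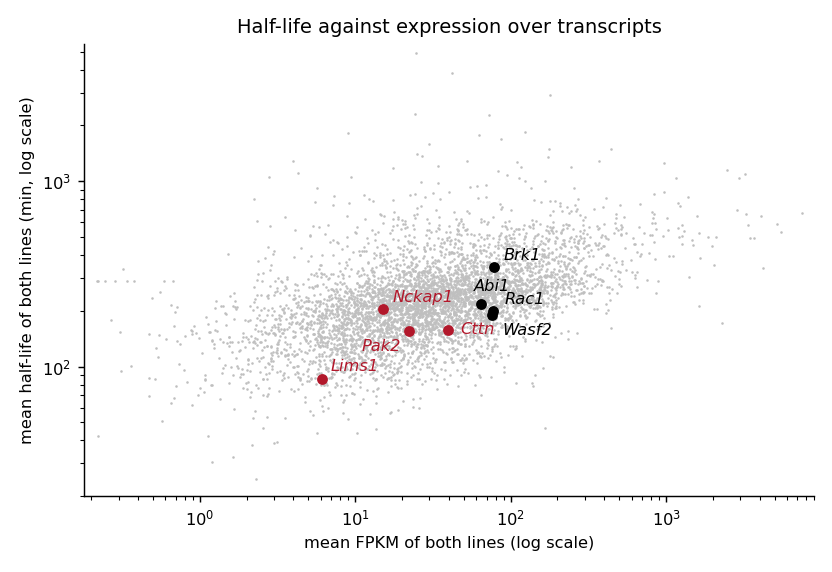
Mean half-life (min) against mean FPKM of both lines, both on log scales, for the 5152 transcripts with both values (grey) and the 8 members (red for bound members, black for others). *Lims1* lies at the low end of both axes, with 6.08 FPKM and 86.1 min, and *Brk1* lies high on both, with 78.5 FPKM and 345 min.

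Between the lines, half-life was lower in TAG/TAG for 6 of 8 members, against 45.9% of all transcripts, and the median log2 ratio of the members was -0.23 against 0.04 over all. The bound members were all lower, *Pak2* with a ratio of 0.748, *Cttn* with 0.765, *Nckap1* with 0.776 and *Lims1* with 0.807. Their ratios lie close together, and each is beyond the lower quartile of all transcripts (-0.24 on the log2 scale). Of the other 4, *Brk1* (0.925) and *Abi1* (0.897) were lower by less, and *Wasf2* (1.16) and *Rac1* (1.54) were higher. The median half-life of the bound members was 178 min in TAG/+ and 134 min in TAG/TAG, and that of the others was 202 min and 223 min. With 4 transcripts in each set, no error on any half-life and 1 line per genotype, whether the sets differ was not tested.

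A 1.5-fold difference in half-life was passed by 1 of 8 members, *Rac1*, against 20.7% of all transcripts. Past a log2 ratio of 0.32 in either direction were 4 of 8, with *Pak2*, *Cttn* and *Nckap1* in addition, against 42.5% of all transcripts. The half-life of *Rac1* was longer in TAG/TAG by 84.6 min, from percentile 22.9 to percentile 55.8. Its FPKM was lower in the same line, so level and half-life moved in opposite directions. The same holds for *Wasf2*, whose half-life was longer and FPKM slightly lower in TAG/TAG, and in reverse for *Abi1* and *Brk1*. In the bound members both values were lower in TAG/TAG. Separately, FPKM was lower for 49.5% of all genes and half-life for 45.9% of all transcripts. The share of all transcripts with each combination of directions was not counted, so these combinations have no background. At steady state, the product of FPKM and the decay rate gives the level renewed per hour, which for *Rac1* was 22.9 FPKM in TAG/+ and 11.9 FPKM in TAG/TAG. For *Pak2* it was 5.32 FPKM and 6.66 FPKM, for *Cttn* 9.51 FPKM and 11.7 FPKM, and for *Nckap1* 2.97 FPKM and 3.25 FPKM. *Abi1*, which is not on the list, had 10.6 FPKM in TAG/+ and 14.3 FPKM in TAG/TAG. *Brk1* had 8.63 FPKM and 10.3 FPKM, and *Wasf2* had 18.3 FPKM and 15.3 FPKM. For *Lims1* the level renewed was 2.99 FPKM per hour in TAG/+ and 2.87 FPKM in TAG/TAG, near the values of *Nckap1*. The length behind the deposited FPKM differs between these genes. The principal transcript was 2.01 times the mean length for *Nckap1* and 0.966 times for *Lims1*. Their rates are therefore not comparable with each other on this scale. The renewal rate is a calculation from values of separate libraries, and steady state was not measured.

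**Figure D5:**
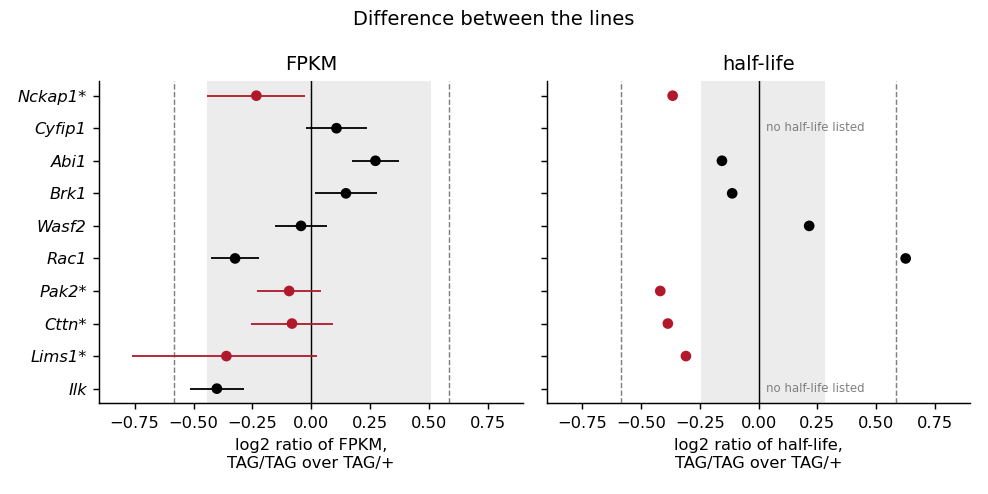
Log2 ratio of FPKM (left) and of half-life (right), TAG/TAG over TAG/+, for each member, with red points and asterisks for bound members. Lines on the left are 95% counting intervals, grey bands are the quartiles of all genes or transcripts, and dashed lines mark 1.5-fold; all bound members lie left of 0 in both panels, and *Rac1* alone lies past a dashed line, in half-life.

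The transcripts whose 4 values (FPKM and half-life in both lines) lay nearest to those of the shortest-lived and longest-lived members were looked up among 5144, by Euclidean distance on the log2 scale. Nearest to *Lims1* were *Rnf19a* (distance 0.242), *Rasa4* (0.283) and *Phospho2* (0.322). *Rnf19a* had 95.1 min in TAG/+ and 78.6 min in TAG/TAG, at 5.80 FPKM and 5.25 FPKM. Nearest to *Brk1* were *Dnaja2* (0.256), *Tagln2* (0.267) and *Ap2b1* (0.278), and *Tagln2* had 313 min in TAG/+ and 323 min in TAG/TAG.

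The relatives of the members with half-lives did not simply follow them. *Wasf1* had 270 min in TAG/+ and 383 min in TAG/TAG, longer than *Wasf2* in both lines. *Abi2* had 161 min and 175 min, shorter than *Abi1* in both. *Pak1* had 184 min and 216 min, and *Pak4* had 252 min and 187 min, both longer than *Pak2* in each line. *Pak2* was therefore the shortest-lived of the 3 PAK mRNAs with a half-life, in both lines.

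Around the members, 60 further genes of the same pathways were listed by role, and 52 of them had an FPKM. Of these, 13 were past 1.5-fold higher in TAG/TAG, 2 were past 1.5-fold lower, and 37 lay within 1.5-fold. The share past 1.5-fold was 28.8%, against 26.1% of all genes with at least 5 FPKM in both lines and 34.3% of those with at least 1 FPKM. The median log2 ratio was 0.18. The share of these partners was thus near that of all genes. Some partners have less than 5 FPKM, which no member has, so the partners and the members are not a like comparison.

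Of the PAK partners and effectors, *Limk1*, a kinase of cofilin that PAKs phosphorylate, stood at 73.5 FPKM in TAG/+ and 120 FPKM in TAG/TAG, and *Cfl2*, a cofilin, at 21.2 FPKM and 16.2 FPKM. Of the activators and inhibitors of RAC, 1 of 11 passed 1.5-fold, and of those with at least 1 FPKM in both lines *Elmo2*, a partner of DOCK exchange factors, had the highest log2 ratio (0.30) and *Prex1*, an exchange factor, the lowest (-0.32). The gene past 1.5-fold was *Vav3*, an exchange factor, with 0.591 FPKM in TAG/+ and 3.55 FPKM in TAG/TAG, from 13 and 84 reads. The list holds activators such as *Tiam1* beside inhibitors such as *Arhgdia*, and over all genes 42.2% passed 1.5-fold.

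Of the partners of cortactin, *Wasl*, which encodes N-WASP, stood at 16.6 FPKM in TAG/+ and 26.8 FPKM in TAG/TAG, and *Ctnnb1*, the catenin of adherens junctions, at 266 FPKM and 194 FPKM. Of the genes around ILK and PINCH, *Itgb1*, the integrin subunit whose tail ILK binds, stood at 17.7 FPKM in TAG/+ and 28.0 FPKM in TAG/TAG, whereas *Parva*, the parvin that completes the ILK-PINCH-parvin complex, stood at 12.3 FPKM and 12.7 FPKM. *Parvb*, another parvin, had 43 reads in TAG/+ and 12 in TAG/TAG, or 3.13 FPKM and 0.812 FPKM, and was the gene of that list past 1.5-fold lower. Of 7 focal adhesion genes, all with at least 5 FPKM in both lines, 3 were past 1.5-fold higher and 0 past 1.5-fold lower. Past 1.5-fold in either direction were 26.1% of genes with at least 5 FPKM in both lines and 42.2% of all genes. *Zyx*, a LIM protein of mature adhesions, had the highest ratio of that list, with 54.7 FPKM in TAG/+ and 129 FPKM in TAG/TAG, and *Ptk2*, the focal adhesion kinase, stood at 106 FPKM and 101 FPKM. Most listed genes around *Ilk* and *Lims1* were thus higher in TAG/TAG. The median log2 ratio was 0.14 for the genes around ILK and PINCH and 0.32 for the focal adhesion genes. Below a ratio of 1 were only *Parvb*, on the few reads given above, and *Ptk2*, with 0.948 and a counting interval from 0.894 to 1.01. *Ilk* (0.757) and *Lims1* (0.776) were themselves lower in TAG/TAG, and the interval of *Lims1* included 1. The fibroblast marker sum was higher in TAG/TAG, with and without *Fn1*, and its part in these values was not tested.

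Half-lives were listed for 31 of the 60 genes, of which 4 were past 1.5-fold longer in TAG/TAG and 1 past 1.5-fold shorter, a share of 16.1% against 20.7% of all transcripts. Below the median in both lines were 12 of the 31, and above it in both were 11, each against 39.8% of all transcripts. The shortest were *Limk2*, with 98.0 min in TAG/+ and 118 min in TAG/TAG, *Bcar1*, a scaffold of focal adhesions, with 111 min and 122 min, and *Cttnbp2nl*, a cortactin-binding protein, with 121 min and 87.2 min. *Rhob*, an early response GTPase, had 118 min and 165 min. *Lims1* lay below each of them in both lines. The GTPases *Cdc42* (364 min and 380 min) and *Rhoa* (385 min and 376 min), the catenin *Ctnnb1* (369 min and 329 min), *Ptk2* (332 min and 339 min) and *Cfl2* (374 min and 514 min) lay far above *Rac1* in both lines. *Prex1* had 223 min in TAG/+ and 435 min in TAG/TAG, and *Vav2*, another exchange factor for RAC, had 194 min and 151 min.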

How the data were processed

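RNA-seq was made from ribosomal RNA-depleted total RNA, and the authors deposited it as 1 FPKM value per gene and line. The submitters' processing notes name kallisto and DESeq2 without a role. The half-lives, in minutes, were deposited as 1 value per transcript and line. They were fitted by the authors with the R function nls as a first-order decay to conversion rates from SlamDunk, after technical replicates were collapsed. The CRAC tracks were not used here.

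FPKM columns were matched to lines by the genotype letters in their names. Reads were recovered from FPKM with the mean length of the annotated transcripts (GENCODE M21), which gave whole numbers, within 0.02, for 100% of 13867 genes in both libraries. If reads were assigned by estimation, these are rounded estimates. In simulated libraries for the TAG/TAG over TAG/+ comparison, 100% of the reads of 13867 genes were recovered. The simulated FPKM were built from whole reads with the same formula. The simulation therefore checks the calculation, and cannot show whether the deposited values were counted reads. Ratios of FPKM carry exact binomial 95% intervals for counting error only, and log2 ratios use a pseudocount of 0.1 FPKM. No test was made, since each line has 1 RNA-seq library and half-lives have no error or depth. The depth behind the half-lives is unknown. Principal transcripts and 3′ UTRs were taken from GENCODE M21, and sequences from its transcripts (GRCm38).

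Named in the text are all 10 members, their listed relatives, the extremes of each other list in FPKM ratio (among genes with at least 1 FPKM in both lines) and in half-life, the 3 transcripts nearest to the shortest-lived and to the longest-lived member, and *Nanos2*. The FPKM extremes of 1 list are not reported here. Genes named outside this rule were chosen after their values were seen, which applies to *Dazl*, *Cfl1*, *Fn1*, *Vav3*, *Tiam1*, *Arhgdia* and *Parvb*. The members and lists were chosen with earlier results of these data known. Alternatives were other pseudocounts, folds, filters, centring and reference sets. Python 3.11.15, numpy 2.4.6, pandas 2.3.3, scipy 1.17.1, numba 0.67.0 and matplotlib 3.10.9 were used.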

Additional observations from a re-analysis of the deposited data

How the results depend on the processing

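Of 64 alternative values, 62 kept their direction and their side of the threshold, or stayed within 1.5 times. Among these, the number of members below the median half-life in both lines went from 4 to 6 against bins of mean FPKM and against transcripts at 5 FPKM or more. With a log2 ratio of 0.32 as the threshold in place of 1.5-fold, the number of members past it in half-life went from 1 to 4, against 42.5% of all transcripts. With only genes at 5 FPKM or more in both lines, the share of all genes past 1.5-fold in FPKM went from 42.2% to 26.1%; fewer low genes are in that set by its construction. Centring (on genes with at least 1 FPKM in both lines, and on all transcripts) moved the log2 ratios by 0.02 in FPKM and -0.04 in half-life and changed the sign of 0 members in each. Scaling to summed reads and to the principal transcript length were chosen after seeing the data. No paired analysis was possible because each line has 1 RNA-seq library and 1 fitted half-life per transcript, and for the same reason no replicate could be left out. Depth limits *Lims1* most, with 121 and 101 reads.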

Other observations

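Over the 4 lists of cell type markers, 13 of 30 listed genes (43.3%) passed 1.5-fold in FPKM between the lines, near the 42.2% of all genes that did. Of 11 listed markers of undifferentiated spermatogonia and germ cells, 4 were past 1.5-fold higher in TAG/TAG and 0 past 1.5-fold lower. The median log2 ratio of these 11 was -0.07, against 0.01 over all genes, so most of them were not higher. *Etv5*, a transcription factor induced by GDNF, stood at 46.0 FPKM in TAG/+ and 178 FPKM in TAG/TAG, and *Nanos3*, a relative of *Nanos2*, at 90.8 FPKM and 65.4 FPKM. By the mean of both lines, *Etv5* had the shortest half-life of this list, 236 min in TAG/+ and 259 min in TAG/TAG. In TAG/TAG alone others were shorter, such as *Nanos3* with 212 min. *Ddx4*, an RNA helicase of germ cells, had the longest, 498 min and 483 min. Of 5 markers of differentiating spermatogonia, 0 were past 1.5-fold higher in TAG/TAG and 1 was past 1.5-fold lower. Their median log2 ratio was -0.40, and their sum was 241 FPKM in TAG/+ and 177 FPKM in TAG/TAG. *Dmrtb1* had the highest log2 ratio of them (0.39) and *Sohlh1* the lowest (-0.69), and *Sohlh2*, the only one with a half-life, had 407 min and 492 min.

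Of the fibroblast markers, *Dcn* stood at 4.44 FPKM in TAG/+ and 10.2 FPKM in TAG/TAG, and *Col3a1* at 7.10 FPKM and 6.79 FPKM. *Col1a2* had the longest half-life of that list, 786 min and 899 min, and *Prrx1*, with 5 reads in TAG/+ and 39 in TAG/TAG, the shortest, 201 min and 96.7 min. Of the testis somatic markers, *Wt1* stood at 2.51 FPKM and 19.6 FPKM, *Star* at 4.62 FPKM and 1.20 FPKM, and *Sox9* had half-lives of 190 min and 185 min. With 1 library per line, these differences have no replicate check.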
